A study of Mus musculus with 14 samples.

Results

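Zar1, Zar1l, Ybx2, Cpeb1, Dazl, Pabpc1l, Pabpn1l, Lsm14b, Zfp36l2 and Papd4 encode proteins that store, mask, polyadenylate, translate or degrade maternal mRNA, and their transcripts were followed in single mouse oocytes with and without the histone demethylase gene Kdm1a. The 10 genes were picked by name from the 24064 in the count table, and all 10 were among the 9198 genes tested. RNA-seq was done on single ovulated oocytes from superovulated females, in 14 libraries taken here as 10 oocytes by their names, whereas the deposited descriptions number each library as an oocyte of its own. The 5 control oocytes were 4 wt/wt oocytes of strain C57BL/6J, named wt1, wt3, wt4 and wt5, with unmodified Kdm1a, and 1 oocyte named C3 of genotype f/f on a mixed C57BL/6J and 129 background, which carried the floxed allele without Cre. The 5 mutants, named D1, D2, D3, D4 and D7, came from f/f females on that mixed background with Zp3-cre, a transgene that is active in growing oocytes and removes the first exon of Kdm1a. Strain and library naming therefore separated wt/wt oocytes from all the others, and C3 was the 1 control that shared both with the mutants. The labels give neither the ages nor the number of the females, and the study's methods give an age range for females mated to obtain embryos, not for those that gave these oocytes, so p-values measure only the spread between these oocytes.

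A fully grown oocyte is almost silent in transcription and runs on mRNA made earlier. Many of those messages are held in ribonucleoprotein particles with short poly(A) tails. CPEB1, bound to a cytoplasmic polyadenylation element (CPE) in the 3' UTR, governs their tail length together with poly(A) polymerases such as PAPD4, also called GLD2 or TENT2. DAZL binds the 3' UTR as well and promotes translation during meiotic maturation. PABPC1L and PABPN1L are the poly(A)-binding proteins of oocytes and early embryos, ZAR1, ZAR1L, YBX2 and LSM14B package stored mRNA, and ZFP36L2 binds AU-rich elements and leads mRNA to decay. The cDNA was primed on poly(A), so fewer molecules and shorter tails cannot be told apart in these counts.

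Total counts ran from 1375187 to 6928548 per oocyte. Kdm1a had 27 to 85 counts in wt/wt oocytes, 669 in C3 and 0 to 10 in mutants, which edgeR fitted as -5.02 on the log2 scale (standard error 0.86, adjusted p = 0.0011). Of 11 oocyte markers, Gdf9, Bmp15, H1foo and Oosp1 had at least 2172 CPM in each oocyte and Figla was at 0 to 0.408 CPM in wt/wt oocytes, and 7 were called higher in mutants (63.6%, beside 14.7% of all genes tested), with a summed level of 25590 to 80430 CPM in controls and 66540 to 133500 CPM in mutants. Of 15 cumulus, granulosa and stromal markers, Amh, Foxl2, Fshr, Inha, Inhba, Ptx3 and Tnfaip6 were at 0 in all oocytes and 3 had enough counts to be tested. Cyp19a1 was the 1 of these called, higher in mutants by 1.48 (log2, adjusted p = 0.0263), from 37.7 to 105.5 CPM, while Nr5a2 was at -1.60 and Kitl at -0.34 and did not pass. With Cyp19a1 included, the summed level of that list was 20.6 to 79.5 CPM in controls and 86.3 to 156 CPM in mutants. The part of either list in the results below was not tested.

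The 3' UTRs of the regulators themselves were read for the elements that these proteins use, and the letters show which of the messages carry a match to the CPE motif. A match describes the letters and is not evidence of binding. A CPE was searched on the transcript strand as TTTTAT or TTTTAAT. At least 1 stood in the 3' UTR of 6 of the 10 messages, against 57.9% of 19353 annotated genes. Dazl held 6, Cpeb1, Zfp36l2 and Papd4 held 4 each, Lsm14b held 2 and Ybx2 held 1, while Zar1, Zar1l, Pabpc1l and Pabpn1l held none. The CPE nearest the transcript end is shown in capitals in 30 bases of GRCm38 (mm10), read from GENCODE transcripts. They lie at chr11:69941532-69941561 (plus strand) for Ybx2, chr7:81347256-81347285 (minus) for Cpeb1, chr17:50279752-50279781 (minus) for Dazl, chr2:180034634-180034663 (plus) for Lsm14b, chr17:84184730-84184759 (minus) for Zfp36l2 and chr13:93146796-93146825 (minus) for Papd4, each within the 3' UTR.
Ybx2: cctctgaagccaTTTTATgaactgtcatgt
Cpeb1: ttgacttttctTTTTAATttaacgattact
Dazl: aagtcaaaattcTTTTATgtcaccaagtca
Lsm14b: aatggaaccaaaTTTTATttggcacatgtg
Zfp36l2: ttcacttggttaTTTTATtgtaaatgagta
Papd4: ctgttttcctggTTTTATtttcctcatgat
The Ybx2 element ended 56 bases before the annotated transcript end and was the 1 CPE of the 6 sites that lay within the last 100 bases, a feature of 17.9% of genes. The others ended 242 (Cpeb1), 367 (Dazl), 525 (Papd4), 810 (Lsm14b) and 811 (Zfp36l2) bases before it. A poly(A) signal stood in the last 40 bases of 9 messages, as AATAAA in 7 and as ATTAAA in Pabpc1l and Pabpn1l, against 73.6% of genes, and Ybx2 had neither there. The AU-rich element TATTTAT, the kind of site that ZFP36L2 binds, stood in the 3' UTR of Zfp36l2 itself (3 copies), Dazl (2) and Cpeb1 (1), against 27.8% of genes. The annotated 3' UTR of Zar1l is 14 bases long, which leaves almost no room for a match.

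Compared with control oocytes, mutant oocytes had more Zar1 and Ybx2 mRNA, by 3.38-fold and 3.85-fold of the group means. Those were the 2 of the 10 regulators called, where a call needed an adjusted p under 0.05 together with a log2 change of 1 or more in size (20% of the regulators, against 25.9% of all genes tested called in either direction, 14.7% called higher and 11.2% called lower). Dazl, at -0.99 on the log2 scale, passed the p threshold but not the fold threshold. The remaining 7 did not pass the test. The median log2 fold change was 0.46 over the 10 regulators and 0.17 over all genes tested. With TMM scaling, Zar1 was the 1 regulator with each mutant oocyte on 1 side of each control oocyte. Such a separation held for 16.2% of genes tested. Over library totals alone the Zar1 groups overlapped. Levels are CPM, counts scaled to a common library size, here over TMM-adjusted totals, and they say nothing of total RNA per oocyte.

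**Figure D1:**
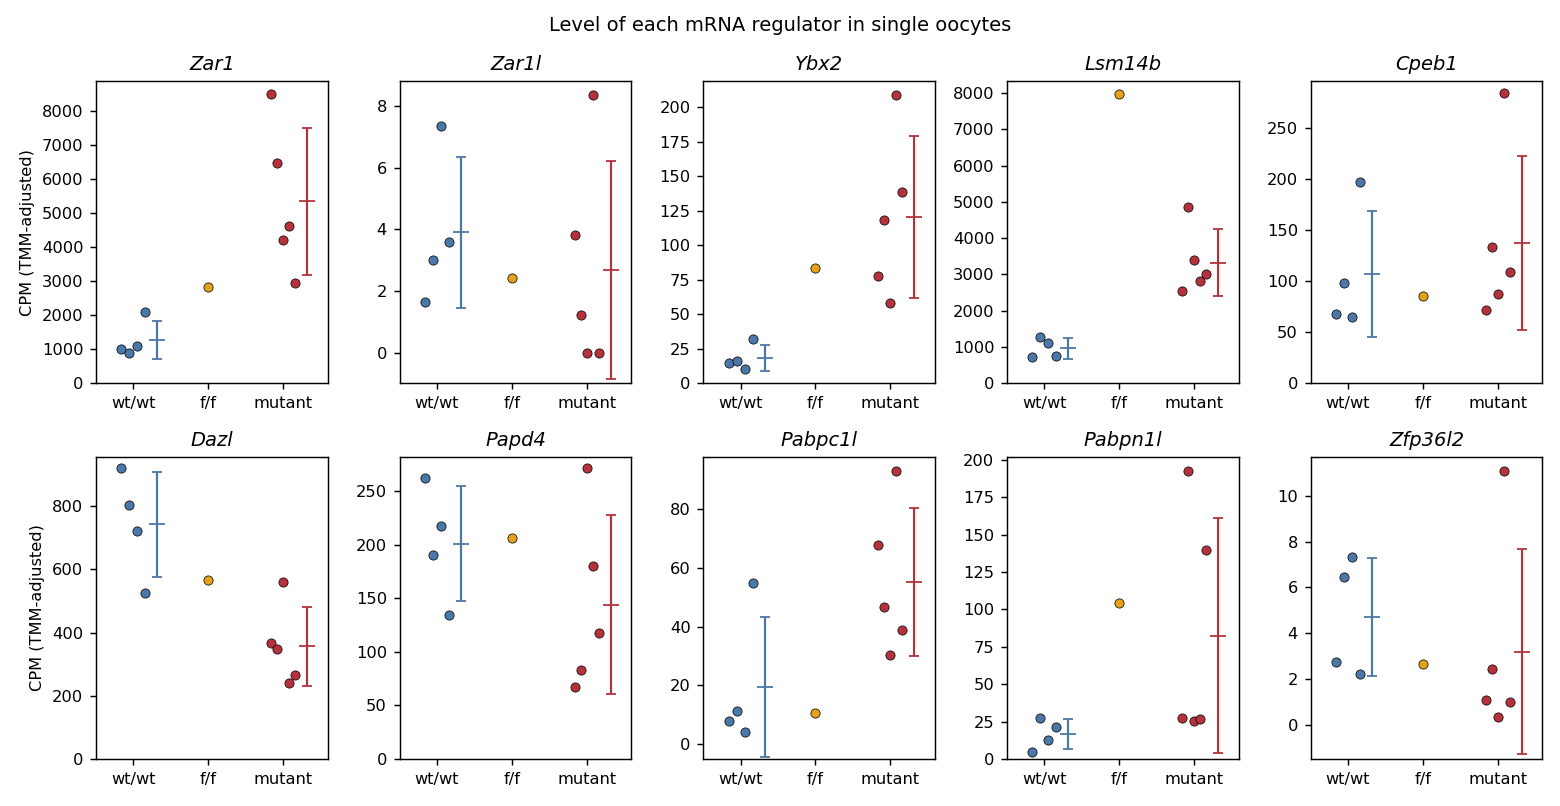
Level of each of the 10 regulators in CPM over TMM-adjusted library sizes (linear axis, a separate scale per gene), with 1 point per oocyte for 4 wt/wt, 1 f/f and 5 mutant oocytes, and the mean ± SD beside the points of wt/wt and mutant oocytes. Zar1 is above all controls in each mutant oocyte, Lsm14b is highest in the f/f oocyte at 7964 CPM, and Dazl is below all controls in 4 of 5 mutants.

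Zar1 (ENSMUSG00000063935) lies at chr5:72576806-72581254 on the minus strand and has 4 exons. Its level was 1010, 902, 1090 and 2088 CPM in wt1, wt3, wt4 and wt5, 2837 CPM in C3, and 8505, 6468, 4226, 4620 and 2955 CPM in D1, D2, D3, D4 and D7. At these TMM-scaled levels the groups did not overlap, but D7 stood close to C3 and the f/f oocyte stood above the 4 wt/wt oocytes. Over library totals alone, D7 (5941 of 2135951 counts) and C3 (12807 of 6928548) both lay below wt5 (4666 of 1637050), so the groups overlapped. The mean was 1585 ± 846 CPM in controls (SD, n = 5) and 5355 ± 2164 CPM in mutants (SD, n = 5), and edgeR gave a log2 ratio of 1.76 (standard error 0.43, adjusted p = 0.00875). With wt/wt oocytes alone as control the log2 fold change was 2.09 (adjusted p = 0.0014), and with C3 alone it was 0.94 (adjusted p = 0.459).

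Ybx2, the germ-cell Y-box protein also known as MSY2 (ENSMUSG00000018554, chr11:69935796-69941605, plus strand), had 14.4, 16.4, 10.2 and 31.8 CPM in the wt/wt oocytes, 83.5 CPM in C3 and 77.6, 119, 58.3, 209 and 138 CPM in D1, D2, D3, D4 and D7. All mutants were above all wt/wt oocytes, and 2 of them, D1 and D3, were below C3. The group means were 31.2 ± 30.3 CPM in controls and 120 ± 58.8 CPM in mutants (SD, n = 5 each), and the log2 fold change was 1.93 (standard error 0.55, adjusted p = 0.0175). It was 2.70 against wt/wt oocytes (adjusted p = 0.00077) and 0.54 against C3 (adjusted p = 0.719). Both calls were lost once trends of the counts with GC content and transcript length were removed in each oocyte, where Zar1 had a log2 fold change of 0.95 (adjusted p = 0.0665) and Ybx2 1.33 (adjusted p = 0.0655). In that fit none of the regulators was called, 4 (Zar1, Ybx2, Dazl and Pabpc1l) had an unadjusted p under 0.05, and 2358 of all 9198 genes tested were called.

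The promoters of the called genes, Zar1 and Ybx2, and of the Zar1 paralogue Zar1l are shown because genes of the oocyte reserve are known targets of the basic helix-loop-helix factor FIGLA, which uses E-boxes, and of the homeobox factor NOBOX. Each run is RefSeq sequence of GRCm38.p6 from 250 bases before to 50 bases after the start, with E-boxes (CANNTG) and the NOBOX motif (TAATTG, or CAATTA on the other strand) in capitals, both strands searched. Zar1 is chr5:72581035-72581334 (minus strand), Zar1l chr5:150518110-150518409 (minus) and Ybx2 chr11:69935649-69935948 (plus).
Zar1: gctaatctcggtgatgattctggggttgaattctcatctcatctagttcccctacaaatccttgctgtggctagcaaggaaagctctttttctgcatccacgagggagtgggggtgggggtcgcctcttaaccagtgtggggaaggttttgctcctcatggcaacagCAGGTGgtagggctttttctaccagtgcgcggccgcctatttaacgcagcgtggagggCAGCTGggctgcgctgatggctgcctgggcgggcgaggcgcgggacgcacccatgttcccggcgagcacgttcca
Zar1l: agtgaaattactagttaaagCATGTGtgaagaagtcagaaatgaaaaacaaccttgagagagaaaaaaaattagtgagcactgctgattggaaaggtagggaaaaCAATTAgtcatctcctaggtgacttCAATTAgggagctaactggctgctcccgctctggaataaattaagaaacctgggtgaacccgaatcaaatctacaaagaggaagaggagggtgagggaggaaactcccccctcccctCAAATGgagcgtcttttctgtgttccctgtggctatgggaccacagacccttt
Ybx2: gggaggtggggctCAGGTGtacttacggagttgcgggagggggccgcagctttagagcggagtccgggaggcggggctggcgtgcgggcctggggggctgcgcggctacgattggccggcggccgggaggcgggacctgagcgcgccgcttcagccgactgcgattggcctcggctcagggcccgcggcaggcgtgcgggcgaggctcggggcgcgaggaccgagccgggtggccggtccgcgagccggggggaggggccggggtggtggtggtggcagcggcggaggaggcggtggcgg
Zar1 held 2 E-boxes, Zar1l 2 and Ybx2 1, and an E-box stood in 72.3% of 32851 promoters. The NOBOX motif was found in 2 places in Zar1l and in none of the other 8 promoters searched, against 8% of promoters. Promoters were listed for 9 of the 10 genes, Zfp36l2 being the other. Ybx2 had 2 listed, of which only the 1 nearest its annotated start was searched. The 3 promoters differed in composition, with 58.7% GC in Zar1, 44.3% in Zar1l and 78% in Ybx2, beside a median of 52.7% over all promoters. As above, a match is not evidence of binding. In the same oocytes Figla rose from 0.259 ± 0.393 to 19.5 ± 20.4 CPM (SD, n = 5 each, adjusted p = 0.0019) and Nobox from 6.60 ± 4.75 to 41.0 ± 23.5 CPM (adjusted p = 0.0094). Figla was at 0.886 CPM in C3 and 0.995 CPM in the lowest mutant. Any part of these factors in the levels of Zar1, Zar1l or Ybx2 was not tested.

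Zar1l (chr5:150507055-150518164, minus strand) was a rare transcript. It had 3, 7, 18 and 8 counts in the wt/wt oocytes, 11 in C3 and 7, 2, 0, 55 and 0 in D1, D2, D3, D4 and D7, that is 1.66 to 7.34 CPM in controls and 0 to 8.35 CPM in mutants. The 0 counts of D3 and D7 allow a level of up to 1.07 and 1.49 CPM at 3 counts. Its log2 fold change was -0.34 (standard error 0.93, adjusted p = 0.815). D1 lay within the control range, D2, D3 and D7 below it and D4 above it, and no difference was detectable at this depth.

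Lsm14b, an RNA-associated protein of the Sm-like family that gathers in storage particles (chr2:180024987-180035465, plus strand), had 710, 1287, 1097 and 741 CPM in the wt/wt oocytes, 7964 CPM in C3 and 2555, 4859, 3401, 2808 and 3006 CPM in D1, D2, D3, D4 and D7. Each oocyte of the mixed background was above each C57BL/6J oocyte, and the f/f oocyte was above every mutant. The log2 fold change was 0.49 with all controls (standard error 0.59, adjusted p = 0.568), 1.82 with wt/wt oocytes alone (adjusted p = 0.00092) and -1.24 with C3 alone (adjusted p = 0.223). The difference was positive with all controls and with any 1 oocyte left out (0.26 to 1.82), was called only without C3 among those fits, and turned negative with C3 as the sole control. Strain and library naming cannot be told apart for this gene, and loss of Kdm1a is separated from both only by C3, which is 1 oocyte.

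Cpeb1 (chr7:81347026-81455465, minus strand) had 67.9, 98.6, 65.3 and 197 CPM in the wt/wt oocytes, 85.5 CPM in C3 and 72.2, 133, 87.1, 284 and 109 CPM in D1, D2, D3, D4 and D7. The highest control (wt5) and the highest mutant (D4) stood apart from their groups, and all other values lay between 65.3 and 133 CPM. The log2 fold change was 0.42 (standard error 0.43, adjusted p = 0.501), and -0.028 without D4.

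Dazl (chr17:50279395-50293636, minus strand) had 922, 803, 720 and 526 CPM in the wt/wt oocytes, 566 CPM in C3 and 366, 349, 561, 240 and 264 CPM in D1, D2, D3, D4 and D7. D3 lay within the control range and the other 4 mutants below it. The mean went from 708 ± 164 CPM in controls to 356 ± 126 CPM in mutants (SD, n = 5 each), 1.99 times lower, and the fitted log2 difference was -0.99 (standard error 0.34, adjusted p = 0.0394). It was -1.03 with wt/wt oocytes alone (adjusted p = 0.0241) and -0.64 with C3 alone (adjusted p = 0.586). With 1 oocyte left out it ranged from -1.17 (without D3) to -0.85 (without D7). Dazl was called without wt5, C3 or D3, and its adjusted p was above 0.05 without any 1 of the other 7 oocytes, up to 0.0976. With GC content and length trends removed it was -0.88 (adjusted p = 0.0633).

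Papd4, the cytoplasmic poly(A) polymerase (Tent2 in the annotation, chr13:93146282-93192385, minus strand), had 262, 190, 217 and 134 CPM in the wt/wt oocytes, 206 CPM in C3 and 67.3, 82.7, 272, 181 and 117 CPM in D1, D2, D3, D4 and D7. As for Dazl, D3 was the highest mutant, and here it was above all controls while D1, D2 and D7 were below all of them. The log2 fold change was -0.49 (standard error 0.39, adjusted p = 0.378).

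Pabpc1l, the embryonic poly(A)-binding protein (chr2:164025450-164050538, plus strand), had 7.73, 11.2, 4.08 and 55.1 CPM in the wt/wt oocytes, 10.6 CPM in C3 and 67.8, 46.8, 30.2, 93.0 and 38.8 CPM in D1, D2, D3, D4 and D7. The control wt5 lay among the mutants and the other 4 controls lay below all of them. The log2 fold change was 1.65 (standard error 0.59, adjusted p = 0.0504), 1.47 with wt/wt oocytes alone (adjusted p = 0.0854) and 2.40 against C3 alone (adjusted p = 0.185). With 1 oocyte left out it ranged from 1.36 (without wt4) to 2.74 (without wt5, adjusted p = 0.0016), and it was called only without wt5 among those fits. It was 1.18 with GC content and length trends removed (adjusted p = 0.114) and 1.12 with library totals (adjusted p = 0.183).

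Pabpn1l, the oocyte form of the nuclear poly(A)-binding protein, which is needed for maternal mRNA clearance (chr8:122619471-122622739, minus strand), had 4.42, 27.1, 12.7 and 21.5 CPM in the wt/wt oocytes, 104.5 CPM in C3 and 27.3, 193, 25.6, 26.9 and 140 CPM in D1, D2, D3, D4 and D7. The mutants fell into a pair of high values, D2 and D7, and 3 values at the upper edge of the wt/wt range. The log2 fold change was 1.25 (standard error 0.74, adjusted p = 0.218), 2.33 with wt/wt oocytes alone (adjusted p = 0.0182) and -0.32 with C3 alone (adjusted p = 0.891).

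Zfp36l2 (chr17:84183931-84187947, minus strand) was near the counting limit, with 5, 15, 18 and 5 counts in the wt/wt oocytes, 12 in C3 and 2, 4, 1, 73 and 2 in D1, D2, D3, D4 and D7. In CPM the controls spanned 2.24 to 7.34 and the mutants 0.356 to 11.1, with D4 far above the other mutants. The log2 fold change was -0.32 with all oocytes (standard error 0.80, adjusted p = 0.792) and -1.82 without D4 (adjusted p = 0.111). An antisense gene overlaps its exons, and strand use in the counting is not given in the sources used here, so its reads and those of the antisense gene cannot be told apart.

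The choice of control weighed on these genes. Against wt/wt oocytes alone 5 of the 10 were called, Zar1, Ybx2, Pabpn1l and Lsm14b higher and Dazl lower, where 31.5% of all genes tested were called. Against C3 alone none was called, 2 (Pabpc1l and Lsm14b) had an unadjusted p under 0.05, and 0.034% of all genes tested were called, with 1 oocyte on the control side assumed to vary like the mutants. C3 lay above each wt/wt oocyte for 4 of the 10 (Zar1, Ybx2, Pabpn1l and Lsm14b), by 2.23-fold, 4.60-fold, 6.37-fold and 8.31-fold of the wt/wt mean, and below each of them for 0. Over all genes tested, C3 lay above every wt/wt oocyte for 28.4% and below for 23.4%. These positions and folds are TMM-scaled, with a factor of 0.652 in C3 and 1.296 to 1.365 in wt/wt oocytes. Over library totals alone all 4 folds are smaller and Zar1 in C3 lay below wt5. Dazl in C3 then lay below each wt/wt oocyte. The 3 comparisons share the same mutant oocytes.

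**Figure D2:**
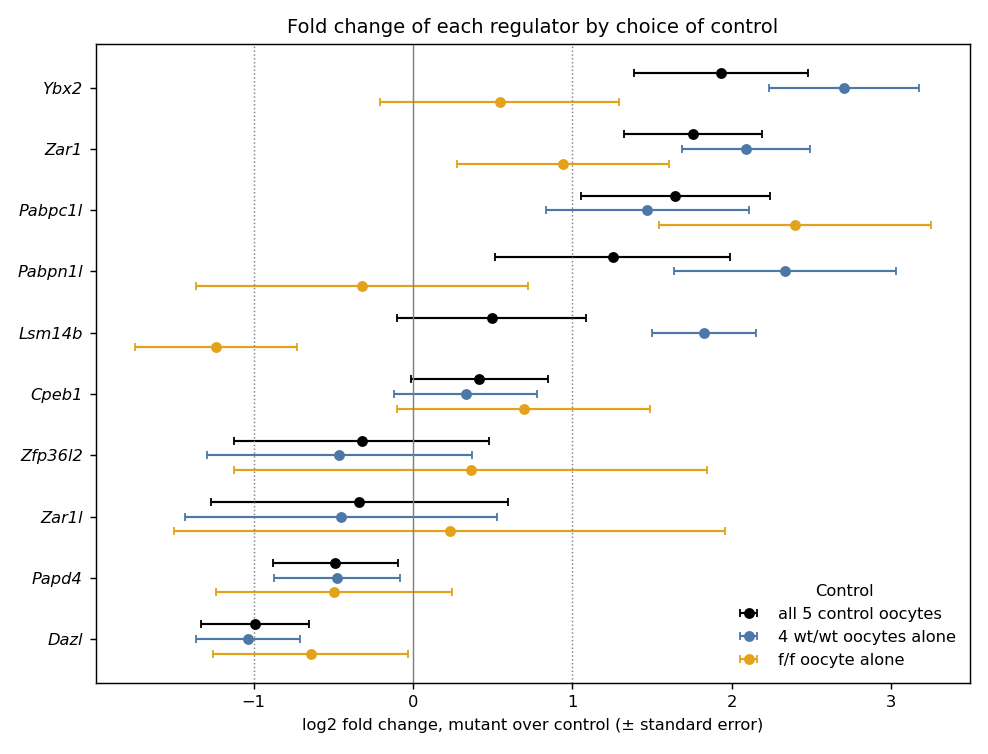
Log2 fold change of mutant over control oocytes for each regulator (x axis, points with ± standard error from edgeR), with all 5 control oocytes, the 4 wt/wt oocytes alone or the single f/f oocyte as control. Dotted lines mark a log2 fold change of 1 in either direction, and Lsm14b moves from 1.82 against wt/wt to -1.24 against f/f.

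There were 2 libraries each under C3, D3, D4 and D7, of which 1 has the suffix DNA, whose meaning is not given in the sources used here. They were summed, although the descriptions give them separate oocyte numbers, and their difference shows how far libraries of 1 oocyte name lay apart. No wt/wt library has the suffix. With every library as its own sample, 4 regulators were called, Zar1, Ybx2 and Pabpc1l higher and Dazl lower, and 2886 of 9198 genes tested. Zar1 was lower in the library with the suffix in 4 of 4 names, by 1.28 in C3, 1.13 in D3, 0.61 in D4 and 1.06 in D7 (log2 CPM). The SD between oocytes, after summing, was 0.54 in wt/wt and 0.59 in mutants in log2 CPM. An SD and a difference of 2 libraries are unlike measures. Lsm14b was lower there in 4 of 4, by 0.84 to 1.27, and so was Dazl, by 0.079 to 1.23. Papd4 differed by at most 0.16. Ybx2, Cpeb1, Pabpc1l, Pabpn1l and Zfp36l2 differed in either direction. With the suffixed libraries left out, the log2 fold change was 1.69 for Zar1 (adjusted p = 0.0192), 2.39 for Ybx2 (adjusted p = 0.004) and -0.95 for Dazl (adjusted p = 0.0471).

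**Figure D3:**
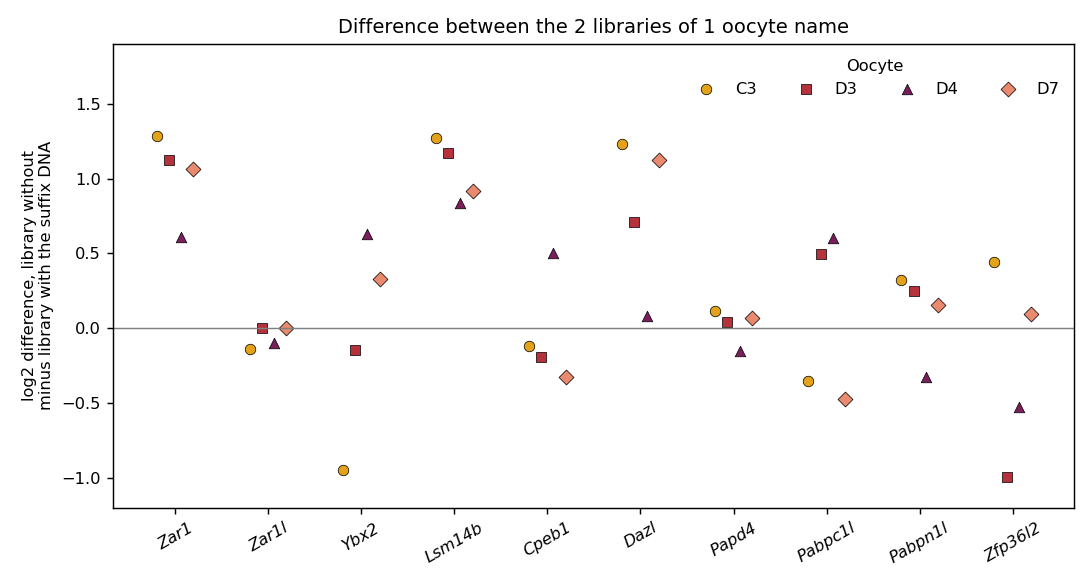
Difference in log2 CPM between the 2 libraries of each of 4 oocyte names (y axis, library without minus library with the suffix DNA), for the 10 regulators on the x axis. Zar1, Lsm14b and Dazl are above 0 in all 4 names, from 0.079 to 1.28, while Papd4 stays within 0.16 of 0.

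Fold changes varied with the base composition of transcripts across the whole table. In 5 equal bins of GC content, the median log2 fold change of tested genes went from -0.15 in the lowest bin to 0.028, 0.043, 0.29 and 0.65 in the highest, and the share called higher from 11.7% to 20.2%. Zar1 (62.1% GC), Ybx2 (63.4%), Pabpn1l (55.8%), Zfp36l2 (54.8%) and Pabpc1l (54.8%) were in the highest bin, and Dazl (37.0%) and Papd4 (39.9%) in the lowest. Zar1, Ybx2, Pabpc1l and Pabpn1l thus stood above the median of their bin and Zfp36l2 below it, while Dazl stood further below 0 than the median of its bin. The messages with a CPE had log2 fold changes of 1.93 (Ybx2), 0.49 (Lsm14b), 0.42 (Cpeb1), -0.32 (Zfp36l2), -0.49 (Papd4) and -0.99 (Dazl), and those without had 1.76 (Zar1), 1.65 (Pabpc1l), 1.25 (Pabpn1l) and -0.34 (Zar1l). Over tested genes with an annotated 3' UTR of at least 100 bases, the median was -0.030 for 5806 genes with a CPE and 0.65 for 2651 without, and the median length of the 3' UTR was 1588.5 and 509 bases. The part of GC content and of 3' UTR length in the difference between genes with and without a CPE was not tested.

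**Figure D4:**
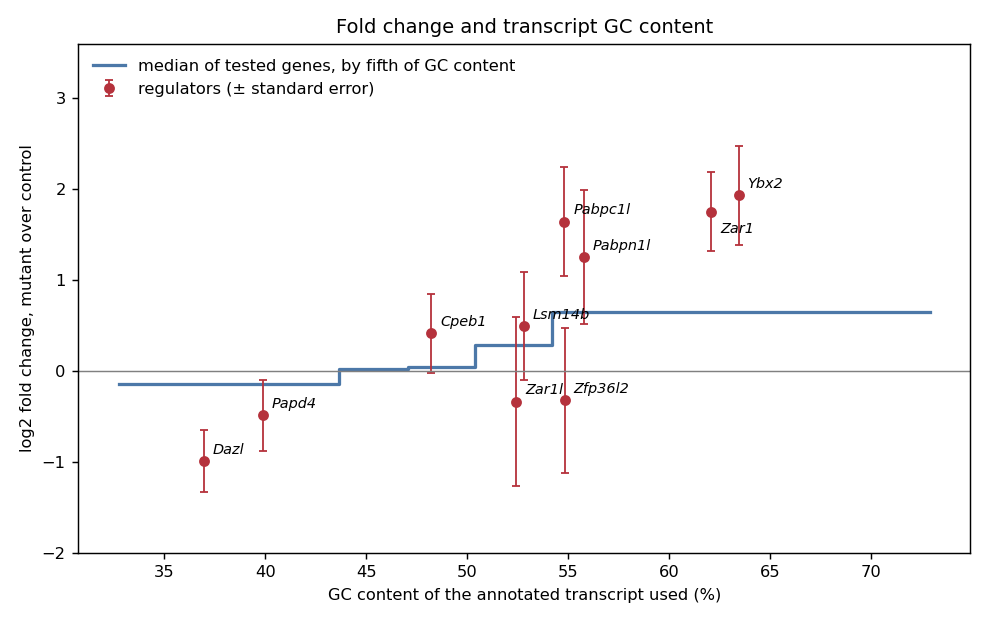
Log2 fold change of mutant over control oocytes (y axis) against GC content of the annotated transcript in percent (x axis), with the 10 regulators as points with ± standard error and the median of all tested genes in 5 equal bins of GC content as a stepped line. The line goes from -0.15 to 0.65, Zar1 and Ybx2 lie above it at 62.1% and 63.4% GC, and Dazl lies below it at 37.0%.

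Levels between genes were compared per kilobase of annotated transcript. In controls the order was Zar1 with 1109 ± 592 CPM per kilobase, Lsm14b 931 ± 1240, Dazl 238 ± 55.2, Papd4 67.6 ± 15.5, Cpeb1 33.1 ± 17.5, Pabpn1l 29.7 ± 35.2, Ybx2 18.7 ± 18.1, Pabpc1l 7.53 ± 8.94, Zar1l 4.03 ± 2.47 and Zfp36l2 1.22 ± 0.683 (SD, n = 5). These means rest in part on C3: over wt/wt oocytes alone Lsm14b was at 378, Pabpn1l at 14.3 and Ybx2 at 10.9 CPM per kilobase, and in C3 Lsm14b, at 3143, was above Zar1, at 1985. Only Dazl and Papd4 were neighbours whose oocytes did not overlap, at 177 to 310 and 44.9 to 87.7 CPM per kilobase. In mutants Zar1 reached 3747 ± 1515 and Lsm14b 1312 ± 360 CPM per kilobase without overlap between their oocytes. Ybx2, seventh in controls, was at 71.9 ± 35.2 in mutants, level with Pabpn1l at 71.8 ± 68.6 in the fourth place. There, Lsm14b and Dazl, and Pabpc1l and Zar1l, were the other neighbours that did not overlap. The cDNA reaches up to 3 kb from the 3' end, and only Cpeb1 and Zfp36l2 have longer annotated transcripts, so their levels per kilobase could be up to 34.3 and 1.43 in controls with the length held at 3 kb.

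The gene with the nearest profile was sought by the root mean square difference of log2 CPM, centred on each gene, over the 10 oocytes. It was Spryd3 for Zar1 (0.30), Mrpl45 for Ybx2 (0.42), Zfp459 for Lsm14b (0.36), Bnc1 for Dazl (0.23), Gnai3 for Papd4 (0.22), Fam166a for Cpeb1 (0.28), 1600002D24Rik for Pabpc1l (0.43), Tpmt for Pabpn1l (0.66), Mrps18c for Zar1l (0.42) and Flot1 for Zfp36l2 (0.34). Among the regulators, Dazl and Papd4 were each other's nearest (0.57), as were Zar1l and Zfp36l2 (0.72), both of low counts, and Zar1 and Ybx2 (0.78). Pabpc1l and Lsm14b each had Zar1 as the nearest (0.84 and 0.88). The oocytes shared by these profiles are the same 10, and the likeness is a description.

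The wider machinery was given by a list of 58 other genes for CPE binding, poly(A) tails, cap binding, storage particles, decapping and RNA binding, of which 46 were tested and 12 had too few counts, at most 15 in any oocyte. Of those tested, 13 were called (28.3%, against 25.9% of all genes tested), 6 higher and 7 lower. The median log2 fold change was 0.015, beside 0.17 over all genes tested, and 23 of 46 were above 0. The called genes were Stau1, Celf1, Caprin1, Pabpc4, Caprin2 and Eif4enif1 (higher) and Igf2bp3, Nanos1, Lsm14a, Cpeb3, Papola, Nanos2 and Pum2 (lower). Without D1 the count was 5, without wt1, wt3 or wt4 it was 7, and against C3 alone it was 0, with 9 at an unadjusted p under 0.05.

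Igf2bp3, which binds and stabilises mRNA, went from 222 ± 75.0 CPM in controls to 55.0 ± 13.2 CPM in mutants, -2.02 on the log2 scale (standard error 0.35, adjusted p = 0.0012). Nanos1, a partner of Pumilio proteins in translational repression, went from 50.9 ± 13.2 to 10.2 ± 4.82 CPM (log2 fold change -2.29, adjusted p = 0.0017). Lsm14a, the paralogue of Lsm14b, went from 1487 ± 201 to 620 ± 217 CPM (log2 fold change -1.26, adjusted p = 0.0132) with all mutants below all controls, C3 included at 1541 CPM, while Lsm14b was not called and had its highest value in C3. Cpeb3, of the CPEB family, went from 87.2 ± 20.6 to 36.9 ± 13.6 CPM (log2 fold change -1.24, adjusted p = 0.018). Among the higher genes, Stau1, a double-stranded RNA-binding protein, went from 98.5 ± 24.0 to 272 ± 166 CPM (log2 fold change 1.47, adjusted p = 0.0177). Celf1, which binds GU-rich elements, went from 27.0 ± 18.2 to 71.3 ± 17.9 CPM (log2 fold change 1.40, adjusted p = 0.0253). Caprin1, a protein of cytoplasmic granules, went from 19.6 ± 7.04 to 47.1 ± 17.4 CPM (log2 fold change 1.27, adjusted p = 0.0263), and the poly(A)-binding protein gene Pabpc4 from 35.9 ± 24.6 to 103 ± 47.6 CPM (log2 fold change 1.52, adjusted p = 0.0286).

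**Figure D5:**
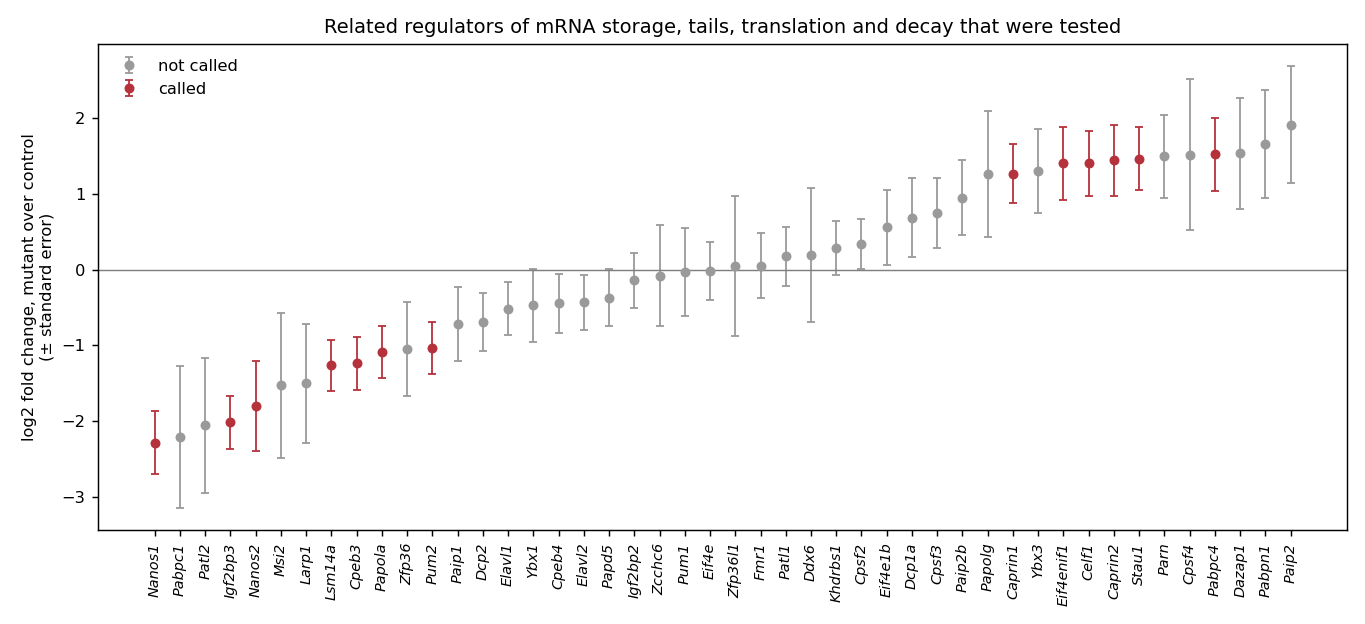
Log2 fold change of mutant over control oocytes (y axis, points with ± standard error from edgeR) for the 46 tested genes of the wider list, in order of their value on the x axis, with the 13 called genes in red. The called genes are 7 lower and 6 higher. They are not always the outermost: uncalled Paip2 (1.92) is the highest, and uncalled Pabpc1 (-2.21) lies below called Igf2bp3 (-2.02).

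Stored messages listed as under cytoplasmic polyadenylation were read as the clients of these proteins. Of 9, Ccnb2, a B-type cyclin (log2 fold change 1.10, adjusted p = 0.0306), and Gdf9, the growth factor of the oocyte (1.61, adjusted p = 0.0356), were called higher, 22.2% of the list beside 25.9% of all genes tested called in either direction and 14.7% called higher. For both, C3 lay within the mutant range and above each wt/wt oocyte. Gdf9 had 38230 CPM in C3, 27150 to 71840 in mutants and 6166 to 15450 in wt/wt oocytes. Ccnb2 had 326.5 CPM in C3, 261.7 to 642.6 in mutants and 148.5 to 262.3 in wt/wt oocytes. The other 7 did not pass, with log2 fold changes of 1.65 for the kinase gene Wee2, 0.44 for Btg4, 0.42 for Mos, 0.16 for Plat, -0.13 for Cnot7, -0.33 for Tpx2 and -0.35 for Ccnb1. Wee2 had 22.4 to 62.2 CPM in wt/wt oocytes, 772 CPM in C3 and 401 to 737 CPM in mutants, so that, as for Lsm14b, C3 lay above each mutant and the wt/wt oocytes lay below each mutant.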

How the data were processed

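Single-oocyte cDNA was made by poly(A)-primed amplification. Per the labels and the study's methods, the authors aligned reads to mm10 with TopHat2 2.0.6, retained reads with a single best alignment and assigned them to RefSeq genes with HTSeq (0.5.3p9 in the submitters' processing notes), and the deposited values are raw counts. All 14 columns were used, and libraries sharing an oocyte name were summed to 10 oocytes, although the descriptions number them as separate oocytes. The comparison of mutants with controls used edgeR 4.0.16 under R 4.3.3 (TMM, glmQLFit, glmQLFTest) and Benjamini-Hochberg adjustment over the top 60% of the 15432 genes with a count. Log2 CPM used a prior count of 2. The limit for a count of 0 was 3 counts and covers counting error only. Trends with GC content and length were removed by loess (span 0.5) over the 9147 of 9198 tested genes with both. GENCODE M21 transcripts matched 98.5% of genes by name, and 1 transcript per gene, principal and then longest, was used. The fit was tested on simulated data. The members and lists were chosen with earlier results of these data known.

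Named were all 10 members, the called genes of the wider list with values for the 4 higher and 4 lower of smallest p, each polyadenylation target, and 1 nearest gene per member. Figla, Nobox, Cyp19a1 and the oocyte values of Wee2, Gdf9 and Ccnb2 were picked after seeing them. Alternatives were DESeq2 1.42.0, upper-quartile scaling, library totals, no filter, filterByExpr, adjusted p alone, every library as its own sample, with and without a replicate block, 1 library per oocyte, wt/wt or f/f alone as control, counts thinned to 1375187, GC content and length trends removed, and leaving out each oocyte.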

Additional observations from a re-analysis of the deposited data

Results flagged for a closer look

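In sets of 4 or 5 oocytes, a highest or lowest oocyte was set apart where its gap to the next value exceeded Dixon's 95% critical value for the set's range. This was tested over all controls, wt/wt oocytes and mutants for each of the 10 regulators, 30 overlapping sets in all, and 8 passed on the CPM scale, each at its highest oocyte. Chance flags about 1 in 20 sets of normally distributed values, which CPM values need not be. On log2 CPM, a scale added after the data were seen, 1 set passed, Lsm14b in C3 among controls. The values below are CPM. The control wt5 was set apart for Zar1 among wt/wt oocytes (2088 CPM, next 1090), for Cpeb1 among controls (197.4 CPM, next 98.6) and for Pabpc1l both among controls and among wt/wt oocytes (55.05 CPM, next 11.2). The f/f oocyte C3 was set apart among controls for Pabpn1l (104.5 CPM, next 27.1) and Lsm14b (7964 CPM, next 1287). The mutant D4, with 6926076 counts, was set apart for Cpeb1 (284.2 CPM, next 133) and Zfp36l2 (11.08 CPM, next 2.43).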

How the results depend on the processing

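Zar1 and Ybx2 were called with each oocyte left out, with log2 fold changes of 1.54 to 2.09 and 1.65 to 2.70. The number of regulators called, 2, was 2 to 5 with an oocyte left out, 4 without wt5 and 5 without C3, 4 with every library as its own sample, 5 with wt/wt oocytes alone and 0 with the f/f oocyte alone, with GC content and length trends removed, or with the replicate block. The count of the wider list, 13, was 5 to 16 with an oocyte left out, 0 against f/f alone and 3 with the block. The count over all genes, 2385, was 1607 to 2885 with an oocyte left out, 3 against f/f alone and 966 with the block. With GC content and length trends removed, 11 of the wider list and 2358 genes were called. The block used the oocyte numbers of the deposited descriptions. No control shared a number with a library of D4 or D7, and no mutant with wt1 or the suffixed C3 library. The blocked difference therefore rests on 4 pairs of libraries. Correlations between same-numbered samples were -0.128 to 0.0937 over 4 pairs, with 1 control closest to its own number. So few pairs, with both libraries of D3 among them, cannot show whether the numbers carry a pairing. Under the block 4 regulators (Zar1, Ybx2, Pabpc1l and Zfp36l2) had an unadjusted p under 0.05. There the log2 fold change was 1.59 for Zar1 (adjusted p = 0.088) and 1.73 for Ybx2 (adjusted p = 0.0894).

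None of the reversed directions was itself called, nor was its counterpart with all controls, though Lsm14b and Pabpn1l were called higher against wt/wt alone. Against f/f alone Zar1l was at 0.23, Pabpn1l at -0.32, Lsm14b at -1.24 and Zfp36l2 at 0.36. Zar1l was at 0.0608 without wt4 and ranged down to -1.53 without D4. Cpeb1 was at -0.0354 with library totals, -0.0543 with the block and -0.0284 without D4, with 0.81 as the highest with an oocyte left out, and Lsm14b at -0.14 with every library as its own sample. With library totals, the median over tested genes went from 0.17 to -0.22 (log2) and the share of calls that were higher from 56.7% to 36.7%, and removal of GC content and length trends moved that share to 46.0%. Zar1 and Ybx2 stayed called with library totals, at 1.40 and 1.81. Dazl was called there at -1.49, and Pabpc1l by DESeq2 at 1.65 (adjusted p = 0.0274). The causes were not tested. Depth limits Zar1l and Zfp36l2, at 0 to 18 counts in all oocytes but D4.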
